A study of Mus musculus with 4 samples.

Results

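The secreted antagonists and modulators of bone morphogenetic protein (BMP) signalling examined here are 10 genes, Nog, Chrd, Twsg1, Bmper, Fst, Fstl1, Grem1, Cer1, Dand5 and Sostdc1. Their probe sets were taken wherever the platform annotation gives the gene as the only symbol, which yielded 17 of the 34945 probe sets with 1 gene symbol and 10 of 18193 genes, and 0 further probe sets named a member beside other genes. Transcript levels were measured on Affymetrix arrays in E14Tg2A.4 cells, a line of mouse embryonic stem cells that lacks Hprt. BMP-2 was given for 1 h at 25 ng/ml to the cells behind 2 arrays, and the cells behind the other 2 stayed untreated. All 4 samples come from this 1 line and differ by no labelled genetic change. The labels do not state separate cultures for the replicates, so every p-value measures a spread between samples that may be technical. RNA from bulk culture cannot tell fewer expressing cells from less RNA per cell.

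BMP ligands bind pairs of serine/threonine kinase receptors, which phosphorylate SMAD1 and SMAD5. Secreted antagonists act before this step, by holding the ligand in a complex that cannot reach its receptors, and several of them are themselves induced by BMP signalling in embryonic tissues, as a negative feedback. In mouse embryonic stem cells BMP signalling acts together with LIF to sustain self-renewal, and its early transcriptional targets include the Id genes and the inhibitory SMADs.

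Of the 10 genes, 3 had a probe set that stood clear of background on all 4 arrays, namely Fstl1, Twsg1 and Fst, and 5 had none above background on any array, namely Nog, Bmper, Cer1, Dand5 and Sostdc1. Chrd and Grem1 lay at the background limit. After 1 h of BMP-2, none of the 10 antagonist probe sets bright enough to be tested differed past the threshold, while Id1, Id2 and Id3 rose by more than the 95% intervals of those 10 reached. The background limit used for these statements was, on each array, the 95th percentile of the signals of 80 probe sets for olfactory and vomeronasal receptors, genes that are little used outside sensory epithelia. It was 95.6 and 138 on the BMP-2 arrays and 97.8 and 133 on the untreated arrays. Over the whole array 40.1% of probe sets exceeded it on all 4 arrays, against 5 of the 17 antagonist probe sets. On both untreated arrays, 7 of the 17 exceeded it, beside 41.9% of all probe sets. Signals are MAS5 values on a linear scale, and since probes differ in affinity the brightness of different probe sets gives no order of abundance.

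Promoter windows were read to show the regulatory sequence beside the expression data. The motif searched was GGCGCC, a GC-rich element bound by SMAD1 and SMAD5, which reads the same on both strands. RefSeq windows of 250 bases before the start (build GRCm38.p6) were found for 7 of the 10 antagonist genes and 3 of 5 known BMP targets. The motif occurred in 9.59% of all 32851 such windows, in 2 of the 7 antagonist windows, those of Chrd and Grem1, and in 1 of the 3 target windows, that of Id2. These are shown with the window of Fstl1, the bright antagonist with the narrowest error, in which those letters do not occur. Each is printed 5′ to 3′ along the gene's strand, with the motif in capitals. The windows are chr16:20732877-20733126 (+) for Chrd, chr2:113758649-113758898 (-) for Grem1, chr16:37776805-37777054 (+) for Fstl1 and chr12:25096093-25096342 (-) for Id2.
Chrd: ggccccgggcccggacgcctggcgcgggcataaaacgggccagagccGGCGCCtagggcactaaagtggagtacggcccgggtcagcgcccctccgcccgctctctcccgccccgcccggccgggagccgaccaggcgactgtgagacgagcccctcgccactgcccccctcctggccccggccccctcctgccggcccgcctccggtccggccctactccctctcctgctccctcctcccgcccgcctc
Grem1: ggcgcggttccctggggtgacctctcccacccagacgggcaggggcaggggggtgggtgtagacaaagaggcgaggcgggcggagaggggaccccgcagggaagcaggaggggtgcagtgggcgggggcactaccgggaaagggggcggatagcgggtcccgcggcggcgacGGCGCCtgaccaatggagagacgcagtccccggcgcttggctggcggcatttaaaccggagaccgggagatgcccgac
Fstl1: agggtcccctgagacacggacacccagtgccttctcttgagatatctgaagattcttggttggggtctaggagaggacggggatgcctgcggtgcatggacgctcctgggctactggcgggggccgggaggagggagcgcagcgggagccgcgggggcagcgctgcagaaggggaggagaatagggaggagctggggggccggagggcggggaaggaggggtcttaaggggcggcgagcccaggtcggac
Id2: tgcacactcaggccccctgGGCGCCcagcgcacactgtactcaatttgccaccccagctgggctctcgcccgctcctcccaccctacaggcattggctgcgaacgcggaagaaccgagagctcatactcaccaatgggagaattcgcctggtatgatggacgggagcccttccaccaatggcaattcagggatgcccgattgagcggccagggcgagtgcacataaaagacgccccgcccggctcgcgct
The motif began 203 bases before the start in Chrd, 78 in Grem1 and 231 in Id2. The motif holds only G and C. GC content was 78.0% in the Chrd window, 72.0% in Grem1, 62.8% in Id2 and 68.0% in Fstl1, beside a median of 52.4% over all windows. The share over all windows is thus not matched for base composition. A match is a run of letters and not a measured binding site.

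**Figure D1:**
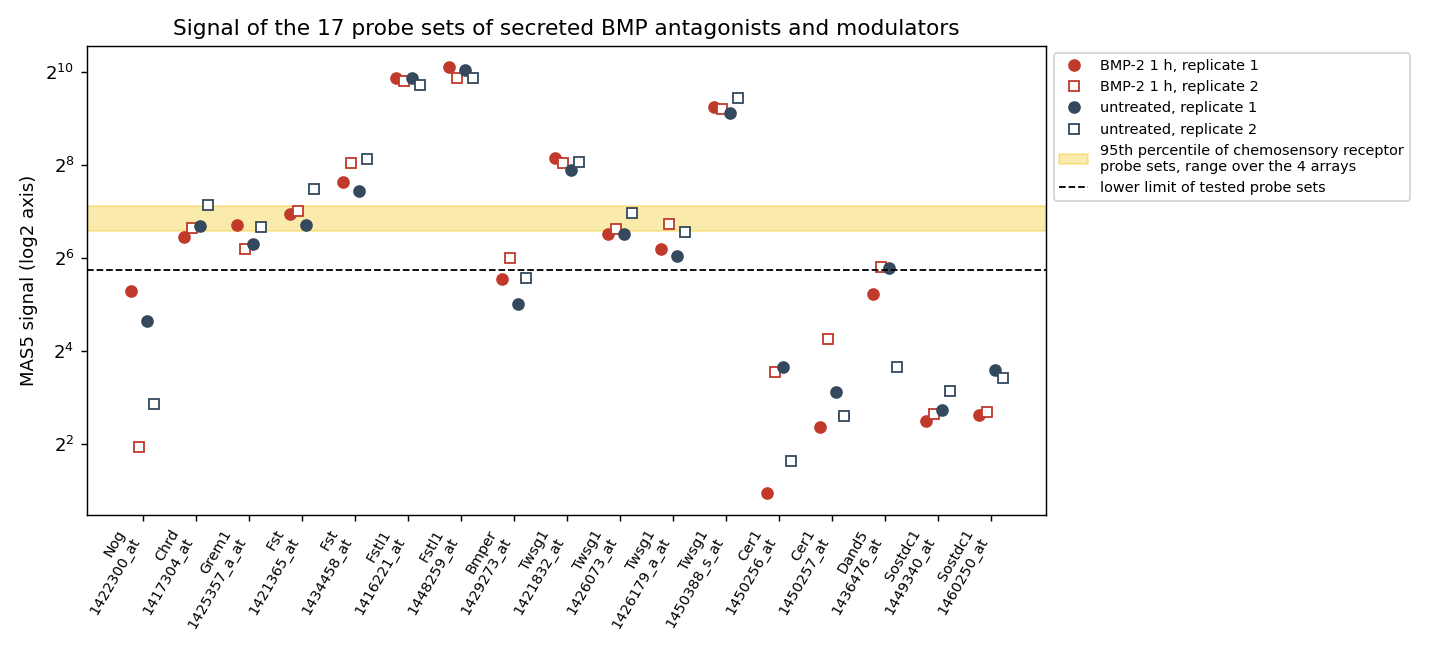
Signal of each of the 17 probe sets on each array (log2 axis), with BMP-2 arrays in red and untreated arrays in blue; circles are replicate 1 and squares replicate 2. The band spans the background limits of the 4 arrays, 95.6 to 138, and the dashed line is the lower limit of the tested probe sets, a signal of 53.0; Fstl1, 2 Twsg1 probe sets and 1 Fst probe set lie above the band on every array.

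The comparison of BMP-2 with untreated arrays asked whether any of these transcripts responds within 1 h. It was made with limma on log2 signals over all 27022 probe sets whose mean signal exceeded 53.0, and 10 of the 17 antagonist probe sets, from 5 genes, were bright enough to enter it. Over all tested probe sets 5 passed an adjusted p of 0.05, which is 0.0185%, and 0 of the 10 antagonist probe sets did, nor did any reach an unadjusted p of 0.05 (3.07% of all tested). Their adjusted p-values were all 1.00 after rounding. The log2 differences, BMP-2 minus untreated, ran from -0.36 to 0.16, with 5 above and 5 below 0 (52.2% of all tested were above 0) and a median of -0.0066, beside a median of 0.0076 over all tested probe sets. The median size of the difference regardless of sign was 0.09 log2 for the antagonists and 0.11 log2 for all tested probe sets. Signals of the 2 groups were separated without overlap for 1 of the 10, Chrd, which was lower with BMP-2, where 28.4% of all tested probe sets were separated and 12.5% were separated downward. The members were chosen with earlier results in view, so these counts are a description.

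The treatment itself was measurable on these arrays. Id1, which encodes an inhibitor of basic helix-loop-helix factors, read 9738 and 9495 on the BMP-2 arrays, against 3129 and 3007 on the untreated arrays, 3.14-fold higher (95% interval 2.80 to 3.51). Id2 and Id3 were 3.38-fold and 3.32-fold higher. Smad6 and Smad7, which encode intracellular inhibitors of the same pathway, were 2.42-fold (1.86 to 3.14) and 1.58-fold (1.37 to 1.81) higher, and by limma their adjusted p-values of 0.062 and 0.064 did not pass. By contrast the upper ends of the 95% intervals of the 10 antagonist probe sets reached at most 1.90-fold and the lower ends at least 0.503-fold, so that all 10 intervals leave out both a 2-fold rise and a fall to 0.5-fold. A 1.5-fold rise lay outside 7 of the 10 intervals and a 1.5-fold fall outside 5 of them. All 10 intervals include no change. The intervals are for the signal. Chrd, Grem1, Fst 1421365_at and Twsg1 1426073_at and 1426179_a_at were not above the background limit on all 4 arrays. For these the intervals cannot exclude a 2-fold change in transcript, since background may make up part of the signal. Fst 1434458_at and Twsg1 1421832_at had untreated means of only 1.95 and 2.17 times the mean background limit. Background may make up part of these signals too, and the range for the transcript is then wider than the interval for the signal.

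**Figure D2:**
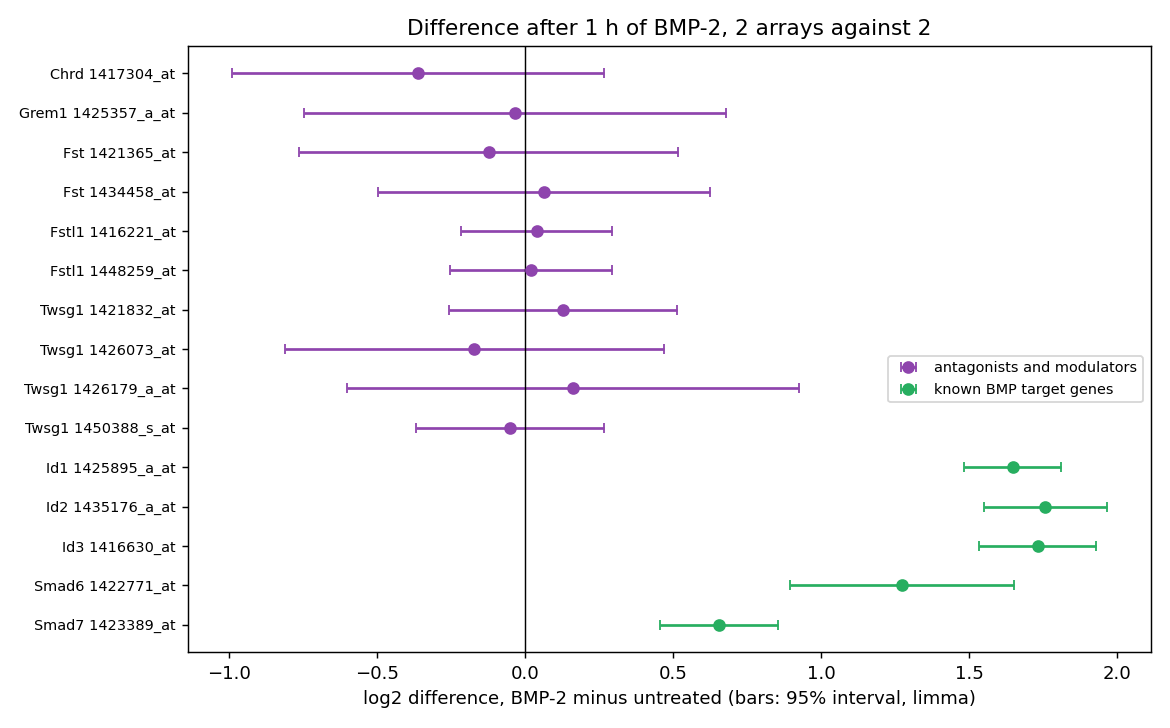
Log2 difference, BMP-2 minus untreated, of the 10 tested antagonist probe sets (purple) and of 5 known BMP target genes (green), with 95% intervals from limma on 2 arrays against 2. Each purple interval crosses 0 and ends below the interval of Id1, Id2 and Id3.

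Chordin, Twisted gastrulation, BMPER and Noggin bind BMPs directly. Chordin (Chrd, 1 probe set, 1417304_at) is a large secreted protein whose cysteine-rich repeats hold BMP2 and BMP4 and which is cut by BMP1 and tolloid proteases. It read 87.0 and 100.3 on the BMP-2 arrays, against 102 and 141 on the untreated arrays. Both untreated signals exceeded the background limit of their array and both BMP-2 signals were below theirs. The BMP-2 signals were the lower ones, by little between BMP-2 replicate 2 and untreated replicate 1. The limits of those 2 arrays differed more, at 138 and 97.8. With the 90th percentile as the limit Chrd exceeded it on 3 arrays, and with the 99th on 0. The log2 difference was -0.36 ± 0.28 (SE, limma adjusted p = 1.00), a fold of 0.778 with an interval of 0.503 to 1.20. Without untreated replicate 2 it was -0.13 log2, and the range over the 4 fits without 1 array was -0.59 to -0.13.

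Twisted gastrulation (Twsg1) binds both BMPs and chordin and is known to act for or against BMP signalling depending on its partners. It had 4 probe sets, all bright enough to be tested. The brightest, 1450388_s_at, read 604 and 587 with BMP-2 and 551 and 691 without, and the groups overlapped, with the untreated arrays holding both the lowest and the highest signal. Its log2 difference was -0.05 ± 0.14 (SE), or 0.774 to 1.20 as a fold interval. Probe set 1421832_at, designed from the same GenBank sequence, read 284 and 264 with BMP-2 and 235 and 267 without. Its log2 difference was 0.13 ± 0.17 (SE), with a fold interval of 0.838 to 1.43. The dimmer 1426073_at and 1426179_a_at, which did not exceed the background limit on any array, differed by -0.17 and 0.16 log2. The 4 Twsg1 probe sets thus gave both signs, and the mean of all 4 differed by 0.02 log2 (interval -0.42 to 0.46). Since they report on 1 gene, they are not independent of one another.

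BMPER (Bmper, 1 probe set) is a BMP-binding protein of the endothelium and other tissues, related to fly crossveinless-2. It read 46.4 and 63.9 with BMP-2 and 32.0 and 47.4 without, below the background limit on all 4 arrays, and overlapped between groups. Its log2 difference of 0.48 was positive between arrays of equal replicate number, at 0.54 and 0.43, but the probe set was below the lower limit for testing. Noggin (Nog, 1 probe set), which covers the receptor-binding faces of BMPs and is a classic feedback target in several embryonic tissues, read 38.9 and 3.82 with BMP-2 and 24.8 and 7.29 without. These are dim values that overlap between groups and differ more within a group than between them.

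Follistatin and follistatin-like 1 share a follistatin domain. Follistatin-like 1 (Fstl1) encodes a secreted glycoprotein, abundant in mesenchymal cells and reported to bind BMP4. Probe set 1448259_at read 1093 and 931 with BMP-2 and 1057 and 937 without, and 1416221_at read 929 and 884 with BMP-2 and 925 and 840 without. On both, replicate 1 was the higher array of each group and the groups overlapped. The log2 differences were 0.02 ± 0.12 and 0.04 ± 0.11 (SE), and the fold intervals of 0.838 to 1.23 and 0.862 to 1.23 came with the smallest standard errors of the 10 tested probe sets. Both probe sets come from the same GenBank sequence.

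Follistatin (Fst) neutralises activin with high affinity and some BMPs more weakly. Probe set 1434458_at was above the background limit on all 4 arrays, at 199 and 264 with BMP-2 and 173 and 277 without. The untreated signals enclosed the treated ones. Its log2 difference was 0.06 ± 0.25 (SE, fold interval 0.710 to 1.54). Probe set 1421365_at read 123 and 128 with BMP-2 and 105 and 179 without, above the limit on 3 of 4 arrays. It differed by -0.12 ± 0.29 log2 (SE), again with the treated signals between the untreated ones. The mean of both probe sets differed by -0.03 log2 (interval -0.62 to 0.56).

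The remaining genes, Grem1, Cer1, Dand5 and Sostdc1, encode cystine-knot proteins of the DAN type. Gremlin 1 (Grem1, 1425357_a_at), an antagonist of BMP2 and BMP4 in limb buds and in fibroblasts, read 104 and 72.7 with BMP-2 and 79.0 and 101 without. It exceeded the background limit on BMP-2 replicate 1 alone, and the treated signals enclosed the untreated ones. Its log2 difference was -0.03 ± 0.32 (SE, fold interval 0.596 to 1.60).

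Cerberus 1 (Cer1), a Nodal and BMP antagonist of the anterior visceral endoderm, had 2 probe sets. They read 1.92 and 11.7, and 5.13 and 19.0, with BMP-2, and 12.6 and 3.12, and 8.70 and 6.02, without. Dand5, a Nodal antagonist that acts in left-right patterning, read 37.6 and 55.6 with BMP-2 and 54.8 and 12.6 without. These signals overlapped between the groups and were below the background limit on all 4 arrays. Sostdc1, a modulator of BMP and Wnt signalling in teeth and kidney, also had 2 probe sets. On 1460250_at it read 6.18 and 6.40 with BMP-2 and 12.0 and 10.7 without, and on 1449340_at 5.61 and 6.29 with BMP-2 and 6.60 and 8.85 without. Both Sostdc1 probe sets were lower without overlap on the BMP-2 arrays, a separation downward that 14.7% of all 45037 probe sets showed. Each was below even the median of the chemosensory receptor probe sets on all 4 arrays, so no level of Sostdc1 was measurable here.

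The 7 probe sets below the limit for testing, from 5 genes, were also fitted together with all others, without the filter. None of the 17 antagonist probe sets then passed an adjusted p of 0.05 by limma (0.00888% of all did), and none reached an unadjusted p of 0.05 (3.72% of all did), with a smallest unadjusted p of 0.248. The 95% intervals of the 7 dim probe sets were 2.13 to 5.41 log2 wide, so that even large changes of Nog, Bmper, Cer1, Dand5 and Sostdc1 were not detectable at these signals.

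Single arrays moved the signs of most differences. Control probe sets for 18S ribosomal RNA were 3.94 to 6.11 times brighter on untreated replicate 2 than on any other array, and 5 of the 10 tested antagonist probe sets (Chrd, both of Fst and 2 of Twsg1) had their highest signal on that array, beside 31.7% of all tested probe sets. Without untreated replicate 2, the log2 differences were -0.13 for Chrd, 0.14 for Grem1, 0.26 and 0.40 for Fst, -0.030 and -0.066 for Fstl1 and 0.053 to 0.42 for the 4 Twsg1 probe sets, and none passed by limma. The median over the 10 was then 0.13 log2, while without untreated replicate 1 it was -0.21. The part of the control signal in these values was not tested. Leaving out an array turned the sign for 8 of the 10 probe sets in at least 1 fit, and Chrd (lower) and Twsg1 1421832_at (higher) kept theirs.

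**Figure D3:**
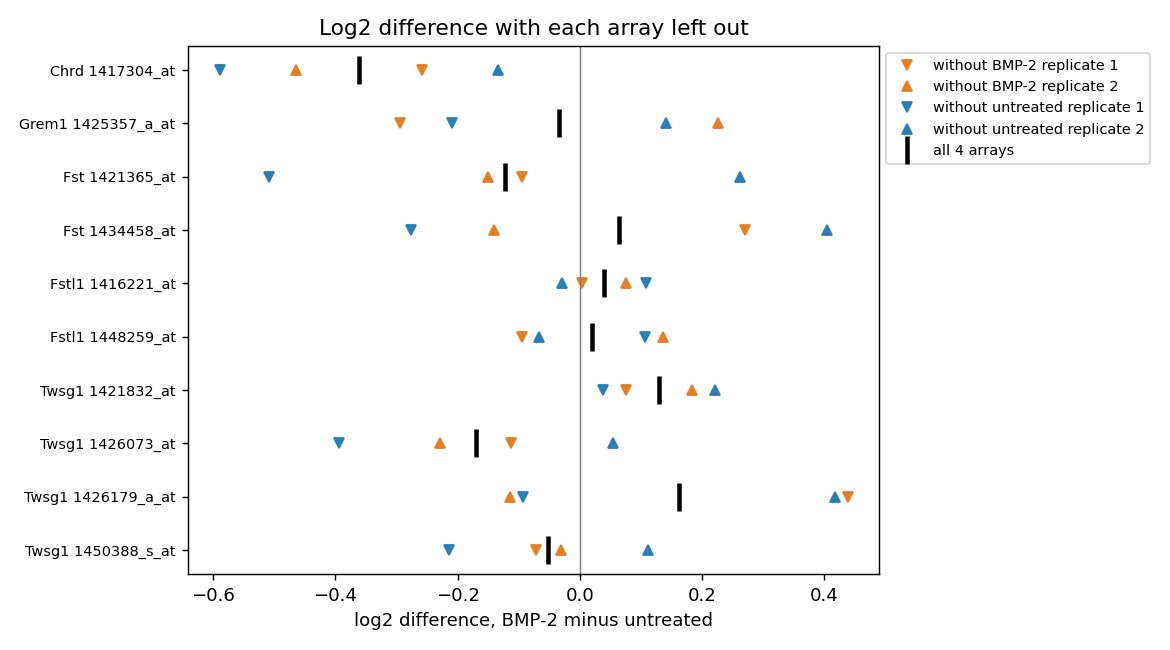
Log2 difference, BMP-2 minus untreated, of the 10 tested antagonist probe sets with all 4 arrays (black bars) and with each array left out (triangles). For 8 of the 10 the triangles fall on both sides of 0, and for Chrd they run from -0.59 to -0.13.

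The cells had the markers of pluripotent stem cells, with all 9 of a 9-gene list (Pou5f1, Nanog and Sox2 among them) above the background limit on all arrays. Fst, Fstl1 and Grem1 are also transcribed by fibroblasts, which serve as feeder cells. Of 10 fibroblast markers, 4 (Col1a2, Thy1, Acta2 and Tagln) exceeded the background limit on all 4 arrays, while Col1a1, Col3a1, Postn, Lum, Pdgfra and Pdgfrb exceeded it on none. The summed fibroblast marker signal was 1850 and 2176 with BMP-2 and 1989 and 1925 without. Most of it came from Acta2 (815 and 989 with BMP-2, 797 and 906 without) and Tagln (468 and 488 with BMP-2, 604 and 386 without). Of 10 endoderm markers 3 (Dab2, Lama1 and Lamb1) were above the limit on all arrays. The sums over the 10 were 2890 and 2878 with BMP-2 and 2503 and 2738 without, mostly from Lamb1 (1776 and 1658 with BMP-2, 1537 and 1673 without). Sox7 (111 and 135 with BMP-2, 63.5 and 50.9 without) and the dimmer Ttr were higher without overlap. None of the 10 was lower without overlap and none passed by limma. Of 6 mesoderm markers 5 had probe sets of their own, and 3 (Mixl1, Eomes and Kdr) were above the limit on all arrays. Among 5 neuroectoderm markers 3 (Pax6, Nes and Neurod1) were. Eomes, Mesp1 and the dim Sox1 were higher without overlap. Neurod1 (1361 and 1303 with BMP-2, 1731 and 1532 without) was lower without overlap, and none of these passed by limma. Of all tested probe sets 28.4% were separated in either direction. The sample titles name no feeder cells. Whether fibroblasts or cells of these lineages were present was not tested, nor was any part of theirs in the antagonist signals.

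A wider list of 36 secreted modulators of the TGF-beta family, written with the earlier results known, gave the surroundings of the 10 genes. Of these 34 had probe sets of their own, 61 in all, of which 14 from 11 genes could be tested. None passed an adjusted p of 0.05 by limma, 6 were above and 8 below 0, and the median was -0.04 log2. Lefty2, a Nodal antagonist, had the smallest p, with 1349 and 1292 on the BMP-2 arrays against 1033 and 789 on the untreated arrays (0.55 ± 0.14 log2, SE, limma adjusted p = 1.00), and it passed without untreated replicate 1. Its paralogue Lefty1 differed by -0.03 log2. Kcp, a chordin-like protein known as an enhancer of BMP signalling, read 400 and 473 with BMP-2 and 300 and 389 without (0.35 log2). On the lower side the smallest p-values were those of a dim Sparc probe set (-0.52 log2), whose bright probe sets gave 0.08 and 0.04, and of Htra1, a secreted serine protease (-0.20 log2). The other DAN-type antagonists Sost and Nbl1, the chordin-like Chrdl1 and Chrdl2, and the chordin protease genes Bmp1, Tll1 and Tll2 were all too dim to be tested.

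Of the ligands these antagonists bind, Bmp4 read 892 and 832 with BMP-2 and 1141 and 1091 without (-0.37 ± 0.11 log2, SE, limma adjusted p = 1.00), separated between the groups but not past the threshold. Bmp7 read 157 and 261 with BMP-2 and 174 and 198 without on its brightest probe set (0.12 log2), and the groups overlapped. Nodal, the ligand held by Cer1 and Dand5, read 5030 and 4850 with BMP-2 and 5619 and 5614 without on 1 probe set (-0.19 log2), while a dimmer probe set of the gene differed by 0.00064 log2. Gdf3, a ligand of the same family, differed by -0.09 log2 on its brightest probe set. A dimmer Gdf3 probe set differed by 0.016 log2 and overlapped between the groups. Bmp4 and those probe sets of Nodal and Gdf3 were lower without overlap, as 12.5% of all tested probe sets were, and none passed. Bmp2 and Inhba, which encodes an activin subunit, were too dim to be tested. Inhbb, which encodes another activin subunit, had probe sets at -0.07 and 0.42 log2. Wnt3 and Wnt8a, not counted here among the ligands bound, were also read. Wnt3 was too dim to be tested, and Wnt8a differed by -0.15 log2 with overlap.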

How the data were processed

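Signals came from 4 one-colour Affymetrix arrays, 2 of E14Tg2A.4 cells given BMP-2 and 2 of untreated cells, grouped by their titles. The authors deposited 1 linear intensity per probe set and array, computed with MAS5 per the submitters' processing notes (version not stated there). Each array had a 2%-trimmed mean of 500, and the 4 medians lay within 0.21 log2, so no further normalization was applied. Detection calls were not used here. The number of arrays limits the precision.

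Signals were taken as log2 without a pseudocount, 64 control probe sets were left out, and probe sets with a mean above the 40th percentile (5.73 log2) were tested with limma 3.58.1 in R 4.3.3 (lmFit, eBayes with an intensity trend, Benjamini-Hochberg adjustment over all 27022, two-sided, no replicate block, 2 residual and 7.98 prior degrees of freedom). The code was tested on simulated data. The 10 genes and all lists were chosen with earlier results of these data known. All 10 genes are named. Of the wider list, the 2 probe sets with the smallest p in each direction are, and Lefty1, the bright Sparc probe sets and the untested genes were added after their values were seen. Ligands and BMP targets are given by their brightest tested probe set. The second probe sets of Nodal, Gdf3 and Inhbb were added after their values were seen. Gene names come from the platform annotation and promoter sequences from RefSeq (GRCm38.p6). Same-numbered arrays deviated together with r = 0.15 over probe sets. Median signals were 81.8 (BMP-2) and 82.5 (untreated) on the arrays numbered 1, and 94.9 and 94.6 on those numbered 2. The SD of log2 differences was 0.345 and 0.353 between same-numbered arrays, and 0.373 (BMP-2) and 0.370 (untreated) within a group. Without a replicate block, the reported errors and intervals include any deviation shared by same-numbered arrays. No label says that a number marks a shared culture. Alternatives were median centring, quantile normalization, a pseudocount of 25.4, other filters, no intensity trend, a replicate block, leaving out each array, a looser threshold, gene means and other background limits.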

Additional observations from a re-analysis of the deposited data

How the results depend on the processing

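The count of 0 antagonist probe sets past the threshold held in all 13 alternatives, and over 123 alternative values of the 10 tested probe sets the smallest adjusted p by limma was 0.919. The count over all probe sets, 5 in the reported fit, was 119 (74 higher, 45 lower) after centring each array on its median over all probe sets and 17 (12 higher, 5 lower) after centring on the median of the tested ones, an alternative added after seeing the data. It was 8 with the filter at the 60th percentile, 0 without the intensity trend (1023 at an unadjusted p of 0.05), 11 with the replicate block, 11 at an adjusted p of 0.1, and 15 to 140 with an array left out. The cause was not tested. The replicate block left 0 antagonists past the threshold (Chrd at an unadjusted p of 0.169), and the lone array of a group was assumed to vary like the others when its partner was left out. The wider list had 0 to 1 calls with an array left out, the 1 being Lefty2 (0.74 log2, adjusted p = 0.0440). The median of the antagonists ran from -0.21 to 0.13 log2. With an array left out, signs turned within -0.29 to 0.23 log2 for Grem1, -0.51 to 0.26 for Fst 1421365_at, -0.28 to 0.40 for Fst 1434458_at, -0.030 to 0.11 for Fstl1 1416221_at, -0.10 to 0.14 for Fstl1 1448259_at, -0.39 to 0.053 for Twsg1 1426073_at, -0.11 to 0.44 for Twsg1 1426179_a_at and -0.21 to 0.11 for Twsg1 1450388_s_at. Outside those fits, the sign turned for Fstl1 1448259_at when centred on the tested probe sets (-0.011), and with gene means for Fst 1434458_at (-0.029) and for Twsg1 1426073_at and 1450388_s_at (0.017 each). On untreated arrays 7 antagonist probe sets exceeded the background limit on both, and 5 to 10 did under the other limits. On BMP-2 arrays 5 did, 5 to 7 with an array left out, and 10 with the lower limit of the tested probe sets.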
